A study of Homo sapiens with 6 samples.

Results

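The leukocyte immunoglobulin-like receptors are surface receptors of myeloid and other blood cells, encoded side by side in the leukocyte receptor complex on chromosome 19. Expression of 9 of these genes was described here in MV4-11 cells, an established human AML cell line, after treatment with WNK463, an inhibitor of the WNK kinases. The genes were the activating receptors *LILRA1*, *LILRA2*, *LILRA5* and *LILRA6*, the inhibitory receptors *LILRB1*, *LILRB2*, *LILRB3* and *LILRB4*, and the related inhibitory collagen receptor *LAIR1*. They were chosen by symbol among the 20348 genes of the deposited table, and all 9 were found.

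RNA-seq was performed on 3 control samples without the inhibitor (Ctrl) and 3 samples given 1 μM WNK463, collected at 48 h. All 6 samples came from the same cell line at 1 dose and 1 time point. The labels do not state whether the samples of a group were separate cultures, and p-values then cover only the spread between these samples. Total counts per sample lay between 14915745 and 17411780, of which the 9 receptor genes held between 6737 and 8094. Of the myeloid markers examined, *PTPRC*, *CD33*, *FLT3*, *CSF1R* and the transcription factor *SPI1* were expressed in both groups. The monocyte marker *CD14* had at most 10 counts in any sample, and the T cell marker *CD3D*, the B cell marker *MS4A1* and the red cell gene *HBB* had 0 counts throughout. The summed level of the 10 macrophage markers examined lay between 2.20 and 3.70 CPM (counts scaled to 1000000 per sample) in Ctrl and between 7.96 and 10.5 CPM with WNK463. Of these, 4 were tested and 3 rose, beside 35.5% of all tested genes that were higher. *C1QC* and *C1QB* had enough counts to be tested only through the treated group. *C1QC* had 2, 4 and 1 counts in Ctrl and 64, 60 and 55 with WNK463, *C1QB* had 0, 1 and 0 and then 18, 11 and 23, and *FOLR2* had 13, 11 and 15 and then 33, 37 and 44. *MARCO* did not pass the test, *CD163* and *MRC1* had at most 1 count in any sample, and *CD5L* and *TIMD4* had 0 throughout. The summed level of the 13 AML and myelomonocytic markers lay between 2886 and 2976 CPM in Ctrl and between 2228 and 2288 CPM with WNK463. With *LYZ*, the most abundant of them, left out, the sum lay between 1560 and 1582 CPM in Ctrl and between 1947 and 1986 CPM with WNK463. The summed level of 15 markers of other blood cells lay between 24.3 and 31.7 CPM in Ctrl and between 57.2 and 61.0 CPM with WNK463. Most of this rise was in *ITGA2B*, with means of 15.9 CPM in Ctrl and 41.6 CPM with WNK463, and 7 of the 15 had 0 counts throughout. The part of these shifts in the receptor values was not tested, and in bulk RNA a change in the number of cells of a type cannot be told apart from a change per cell.

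Inhibitory members of the family carry immunoreceptor tyrosine-based inhibitory motifs in their cytoplasmic tails. Once phosphorylated, these motifs recruit the phosphatases SHP-1 and SHP-2, encoded by *PTPN6* and *PTPN11*, which dampen kinase signalling. Activating members have short tails and signal through the Fc receptor γ chain, encoded by *FCER1G*, whose activation motif is read by the kinase SYK. LILRB4 is known as a surface marker of monocytic AML and has been studied as a therapeutic target there.

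All 9 genes lie on chromosome 19 of GRCh38 between 54216278 and 54670359 (GENCODE 29), a span of 454.1 kb. *LILRB3*, *LILRA6*, *LILRB2*, *LILRA5* and *LAIR1* follow each other on the minus strand, and *LILRA2*, *LILRA1*, *LILRB1* and *LILRB4* on the plus strand. Reads from such related genes can be divided wrongly between them. Of all windows of 100 bases in the annotated *LILRA6* transcripts, 8.74% also occurred in another gene, mostly in *LILRB3*. The share was 12.0% for *LILRB3*, 3.81% for *LILRB1*, 3.72% for *LILRB2* and 2.03% for *LAIR1*, where the other gene was *LAIR2*. It was 13.1% for *LILRA2* and 10.7% for *LILRB4*, where the other genes were an overlapping non-coding RNA and an overlapping pseudogene. No window of *LILRA1* or *LILRA5* occurred elsewhere, although some exonic bases of *LILRA5* lie in exons of another gene. Values of *LILRB3* and *LILRA6* are therefore uncertain as to which of these genes the reads came from. Both also lie within *RPS9* on the other strand, with 0% of their exonic bases in exons of other genes. For *LILRB1* that share was 7.09%, with the antisense gene *LILRB1-AS1* on the other strand. Whether counting used strand is not given, so reads from such genes could add to these values. Strand could not set apart reads of genes that overlap on the same strand.

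RefSeq (GRCh38.p14) lists promoter windows, from 250 bases before to 50 bases after a transcript start, for 8 of the 9 genes, several of them with more than 1 start. These windows show how closely the genes are related outside their coding sequence. Among windows of different genes, the closest pair was *LILRA1* and *LILRB1*, an activating and an inhibitory receptor that both fell after treatment, with 282 identical bases over 300 aligned positions (94.0%). They are printed with the bases that differ or have no partner in the alignment in capitals, from chr19:54593382-54593681 and chr19:54630234-54630533, both on the plus strand.
LILRA1: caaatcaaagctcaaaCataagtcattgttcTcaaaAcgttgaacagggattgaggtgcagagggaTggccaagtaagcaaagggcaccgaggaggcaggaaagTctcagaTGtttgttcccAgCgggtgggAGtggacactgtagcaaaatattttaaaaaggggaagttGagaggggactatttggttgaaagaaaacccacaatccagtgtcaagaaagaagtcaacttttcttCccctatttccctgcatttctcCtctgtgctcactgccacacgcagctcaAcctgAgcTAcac
LILRB1: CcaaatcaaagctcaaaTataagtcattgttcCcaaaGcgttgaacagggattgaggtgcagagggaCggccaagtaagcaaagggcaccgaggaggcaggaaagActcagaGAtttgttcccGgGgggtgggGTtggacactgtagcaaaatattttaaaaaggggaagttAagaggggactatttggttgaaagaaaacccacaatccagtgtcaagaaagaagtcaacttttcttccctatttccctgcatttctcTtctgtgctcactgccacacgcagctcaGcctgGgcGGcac
*LILRB2*, which also fell, was 91.8% identical to *LILRA1* and 91.0% identical to *LILRB1*. *LILRB3*, which rose, and *LILRB4*, which fell, were 81.9% identical over 282 aligned positions. These are shown with *LAIR1*, the other gene that rose, from chr19:54222958-54223257 (minus strand), chr19:54662735-54663034 (plus strand) and chr19:54364882-54365181 (minus strand). Capitals mark matches to GAGGAA on either strand, the core of sites for the myeloid factor PU.1.
LILRB3: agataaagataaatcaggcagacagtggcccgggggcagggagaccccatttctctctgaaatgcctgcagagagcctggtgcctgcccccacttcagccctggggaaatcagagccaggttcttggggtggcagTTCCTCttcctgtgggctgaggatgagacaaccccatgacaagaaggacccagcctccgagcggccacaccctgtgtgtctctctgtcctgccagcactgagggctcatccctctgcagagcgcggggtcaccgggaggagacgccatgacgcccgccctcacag
LILRB4: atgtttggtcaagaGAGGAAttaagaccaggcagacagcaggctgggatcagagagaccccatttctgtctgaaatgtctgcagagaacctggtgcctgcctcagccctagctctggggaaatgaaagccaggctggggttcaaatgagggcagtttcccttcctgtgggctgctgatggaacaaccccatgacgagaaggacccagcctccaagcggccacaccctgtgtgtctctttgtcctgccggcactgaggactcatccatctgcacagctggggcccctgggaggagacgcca
LAIR1: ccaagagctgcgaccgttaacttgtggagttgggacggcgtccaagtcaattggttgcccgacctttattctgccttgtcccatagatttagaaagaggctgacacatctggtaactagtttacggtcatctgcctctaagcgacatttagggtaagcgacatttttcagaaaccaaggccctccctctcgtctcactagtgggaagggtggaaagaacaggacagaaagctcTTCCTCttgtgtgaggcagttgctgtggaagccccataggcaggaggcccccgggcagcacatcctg
The letters GAGGAA, searched on both strands, occurred in 6 of the 15 windows of these genes and in 27.9% of all 35097 windows listed. They were found for 5 of the 8 genes. These were *LILRB1*, *LILRB3*, *LILRB4*, *LILRA5* and *LAIR1*, which include genes that rose and genes that fell. TTGCNNAA, like a C/EBP site, was present in 1 of the 15 windows (*LILRA5*) and in 10.5% of all windows. TGANTCA, like an AP-1 site, was present in 1 of the 15 (*LILRB1*) and in 7.71% of all windows. A match is a description of letters only, and the data do not show which start was used.

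Of the 4 activating receptor genes, the 3 with enough counts to be tested were lower after WNK463 treatment. *LILRA1* fell by 32.6%, *LILRA2* fell by 38.1% and *LILRA5* fell by 75.3%. Of the 5 inhibitory receptor genes, *LILRB1* fell by 42.7%, *LILRB2* fell by 47.3% and *LILRB4* fell by 21.7%, while *LAIR1* rose by 11.8% and *LILRB3* rose 4.13-fold from a very low level. These changes come from edgeR's quasi-likelihood test on the counts with TMM scaling, with p-values adjusted over all 11973 genes tested and called below 0.05. By this rule 35.5% of all tested genes were higher and 35.3% were lower, so a call is common in this comparison. The balance depends on scaling, with 46.1% higher and 26.1% lower when libraries are scaled by total counts and 43.1% higher and 22.5% lower with limma on log2(TPM + 1), and TPM values carry the same shift toward higher values after treatment. When a log2 change of 1 or more in size was also required, 9.62% of all tested genes were higher and 5.55% lower. Of the receptors only *LILRB3* (higher) and *LILRA5* (lower) were then called. Both passed the filter on low counts only through the group where they were higher, so a gene with their lower level in both groups would not have been tested. The median log2 fold change was -0.69 over the 3 tested activating genes and -0.35 over the 5 inhibitory genes, beside 0.02 over all tested genes. In each of the 9 genes the CPM of the 2 groups did not overlap, with the treated samples above in 3 genes and below in 6. Of all tested genes, 37.1% did not overlap with the treated samples above and 36.4% with them below, 73.5% together. The smallest p that 3 samples in each group allow in a two-sided exact permutation test is 0.10.

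**Figure D1:**
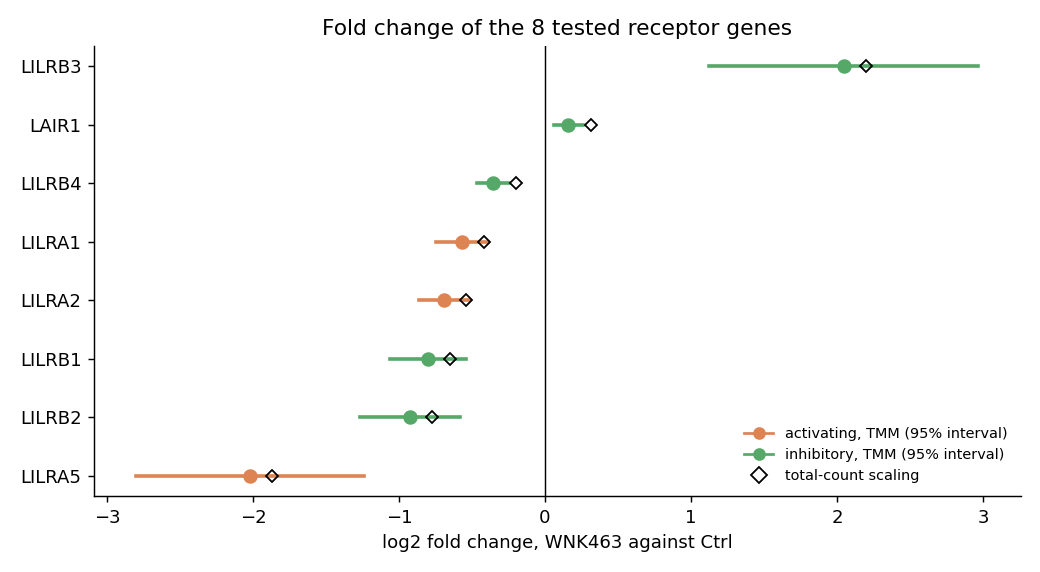
Log2 fold change of the 8 tested receptor genes (horizontal axis, WNK463 against Ctrl) with TMM scaling (dots, bars for the 95% interval) and with scaling by total counts (open diamonds). Only *LILRB3* (2.05) and *LAIR1* (0.16) lie above 0, and every gene lies on the same side of 0 under both scalings.

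Levels of different genes were compared in TPM, which corrects for transcript length. In Ctrl the order from high to low was *LAIR1*, *LILRB4*, *LILRA2*, *LILRA1*, *LILRB1*, *LILRB2*, *LILRA5*, *LILRB3* and *LILRA6*. With WNK463 it was the same except that *LILRB3* stood above *LILRA5*. In neither group did the 3 TPM values of a gene overlap those of the next gene in the order. Together the 9 genes held 477.5 ± 10.7 TPM in Ctrl and 450.0 ± 17.6 TPM with WNK463 (SD, n = 3 each).

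**Figure D2:**
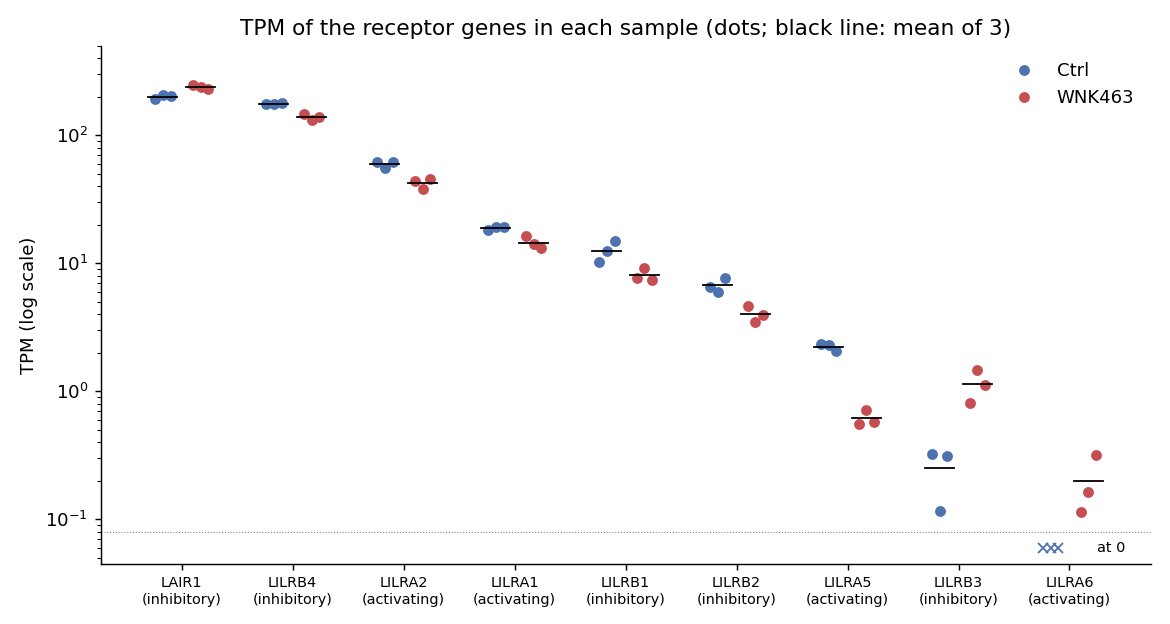
TPM of the 9 receptor genes (vertical axis, log scale) in each of the 3 Ctrl and 3 WNK463 samples, with black lines for the means and crosses for samples at 0. *LAIR1* and *LILRB4* stand highest in both groups, and *LILRA5* and *LILRB3* exchange places.

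*LAIR1* (ENSG00000167613; chromosome 19 from 54351384 to 54370558, minus strand) encodes an inhibitory receptor for collagens. It was the most abundant of the 9, at 192.9, 207.2 and 203.5 TPM in Ctrl and 249.0, 237.4 and 231.2 TPM with WNK463. Every treated sample lay above every Ctrl sample. The normalized count was 206.9 ± 4.16 CPM in Ctrl and 231.3 ± 5.98 CPM with WNK463 (SD, n = 3 each). The fitted log2 change was 0.16 with a standard error of 0.05 (edgeR, adjusted p = 0.00466). The genes most like *LAIR1* over the 6 samples, by Pearson's r of log2 CPM, were *C11orf71*, *POGLUT2* and *ZBTB4*, each with r = 0.998. As the samples form 2 groups, this r mostly describes the difference between them.

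*LILRB4* (ENSG00000186818; from 54643889 to 54670359, plus strand) encodes an inhibitory receptor of monocytic cells for which apolipoprotein E is a known ligand. Its level was 174.4, 174.9 and 178.2 TPM in Ctrl and 146.7, 132.7 and 139.0 TPM with WNK463, with no overlap. It fell from 165.0 ± 1.95 to 129.2 ± 7.36 CPM (SD, n = 3 each). The fitted log2 change was -0.35 with a standard error of 0.05 (edgeR, adjusted p = 8.77e-06). *LILRB4* remained the second most abundant of the 9 genes. The ratio of *LAIR1* to *LILRB4* TPM within a sample, which does not depend on library scaling, was 1.11, 1.18 and 1.14 in Ctrl and 1.70, 1.79 and 1.66 with WNK463.

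*LILRB1* (ENSG00000104972; from 54617158 to 54637528, plus strand) and *LILRB2* (ENSG00000131042; from 54273821 to 54281184, minus strand) encode inhibitory receptors for HLA class I molecules. *LILRB1* was at 10.2, 12.5 and 15.1 TPM in Ctrl and at 7.72, 9.13 and 7.45 TPM with WNK463. Its normalized count was 19.3 ± 3.02 CPM in Ctrl, against 11.0 ± 1.34 CPM with WNK463 (SD, n = 3 each). The fitted log2 change was -0.80 with a standard error of 0.12 (edgeR, adjusted p = 1.55e-05). *LILRB2* was at 6.49, 6.02 and 7.66 TPM in Ctrl and at 4.65, 3.48 and 3.95 TPM with WNK463, a log2 fold change of -0.92 (standard error 0.16, adjusted p = 5.81e-05 from edgeR). For both genes the lowest Ctrl sample stood above the highest treated sample. Their 95% intervals, from -1.06 to -0.54 for *LILRB1* and from -1.26 to -0.58 for *LILRB2*, overlapped, and the difference between them was not tested.

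*LILRB3* (ENSG00000204577; from 54216278 to 54223506, minus strand), another inhibitory member, was the lowest inhibitory receptor gene in both groups. Its counts were 8, 2 and 6 in Ctrl and 18, 29 and 23 with WNK463, and its TPM values 0.326, 0.117 and 0.310 in Ctrl and 0.810, 1.46 and 1.13 with WNK463. The treated samples were all higher, with a log2 fold change of 2.05 (95% interval from 1.13 to 2.97, adjusted p = 0.000436 from edgeR). It passed the filter on low counts only through the treated group, so a gene with its Ctrl level in both groups would not have been tested. Summed with *LILRA6*, with which it shares sequence, the log2 fold change was 2.35 (adjusted p = 0.000105 from edgeR).

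*LILRA2* (ENSG00000239998; from 54572920 to 54590287, plus strand) encodes an activating receptor for immunoglobulins cleaved by microbial proteases, and was the most abundant activating member. Its level was 61.8, 55.9 and 62.2 TPM in Ctrl and 44.3, 37.9 and 46.0 TPM with WNK463. It fell from 51.9 ± 3.47 to 32.2 ± 3.76 CPM (SD, n = 3 each). The fitted log2 change was -0.69 with a standard error of 0.08 (edgeR, adjusted p = 7.25e-07). *LILRA1* (ENSG00000104974; from 54593582 to 54602090, plus strand), an activating receptor that can bind HLA class I, was at 18.2, 19.1 and 19.1 TPM in Ctrl and at 16.2, 14.2 and 13.2 TPM with WNK463. The fitted log2 change was -0.57 with a standard error of 0.08 (edgeR, adjusted p = 9.71e-06). The groups overlapped for neither gene.

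*LILRA5* (ENSG00000187116; from 54307070 to 54313139, minus strand), an activating receptor of monocytes and neutrophils, had the largest fall of the 9. Its counts were 27, 23 and 25 in Ctrl and 6, 7 and 6 with WNK463, which correspond to 2.34, 2.30 and 2.05 TPM and to 0.553, 0.712 and 0.581 TPM. The log2 fold change was -2.02 (95% interval from -2.80 to -1.24, adjusted p = 9.79e-05 from edgeR). It passed the filter only through the Ctrl group. *LILRA6* (ENSG00000244482; from 54236592 to 54242791, minus strand), an activating gene closely related to *LILRB3*, had 0 counts in each Ctrl sample and 2, 5 and 9 with WNK463. It did not pass the filter and has no test here. Against a limit of 3 counts over the 3 Ctrl samples (0.0633 CPM), the pooled treated level of 0.324 CPM was 5.12-fold higher. Counting error alone gave the 16 treated counts a 95% interval from 0.185 to 0.526 CPM, so 5.12 is not a lower bound. The source of the reads is uncertain.

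The make-up of the receptor transcripts was compared as each gene's share of the summed TPM of the 9 genes, which also does not depend on library scaling. *LAIR1* held 42.1% ± 1.08 in Ctrl and 53.2% ± 1.06 with WNK463, and *LILRB4* held 36.8% ± 0.476 and 31.0% ± 0.548 (SD, n = 3 each). *LILRA2* held 12.6% ± 0.796 and 9.49% ± 0.864, and *LILRA1* 3.94% ± 0.0548 and 3.23% ± 0.239 (SD, n = 3 each). The activating genes summed to 82.3, 77.3 and 83.3 TPM in Ctrl and to 61.2, 52.9 and 60.1 TPM with WNK463, with no overlap. The inhibitory genes summed to 396.6 ± 10.9 TPM in Ctrl and 391.9 ± 14.7 TPM with WNK463 (SD, n = 3 each), and these groups overlapped. On the CPM scale with TMM factors their sums did not overlap, at 393.1 to 405.4 CPM in Ctrl and 366.4 to 392.0 CPM with WNK463. Without *LAIR1* the inhibitory genes summed to 195.4 ± 5.20 TPM in Ctrl and 152.7 ± 6.63 TPM with WNK463 (SD, n = 3 each). The ratio of activating to LILRB transcripts was then 0.430, 0.399 and 0.414 in Ctrl and 0.383, 0.361 and 0.396 with WNK463, with no overlap but with groups that lay close to each other.

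**Figure D3:**
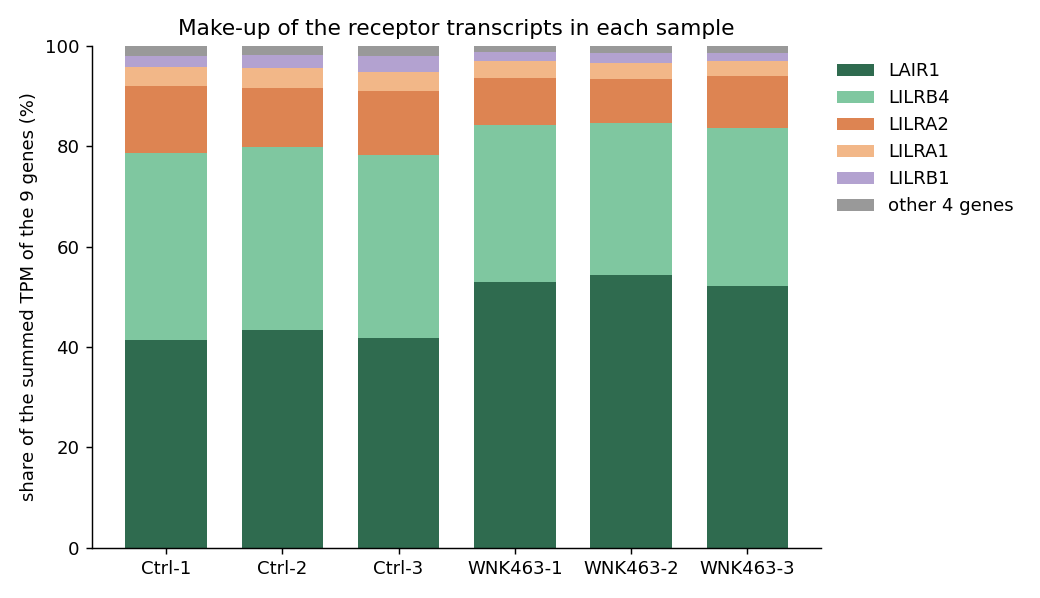
Share of each receptor gene in the summed TPM of the 9 genes (vertical axis, percent) for each of the 6 samples (horizontal axis). *LAIR1* grows from 42.1% in Ctrl to 53.2% with WNK463 on average, and the shares of *LILRB4* and *LILRA2* shrink.

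Along the cluster, the 4 neighbouring genes *LILRA2*, *LILRA1*, *LILRB1* and *LILRB4*, which include both classes, all fell. At the other end of the cluster, *LILRB3* and *LAIR1* rose, while *LILRB2* and *LILRA5* between them fell. Of 4 further family genes, *LAIR2*, which encodes a soluble relative of LAIR1, had 12, 8 and 11 counts in Ctrl and 25, 24 and 14 with WNK463. Its log2 fold change of 0.95 passed the test (adjusted p = 0.0286 from edgeR), but the call was lost (0 called) when any sample other than WNK463 replicate 3 was left out, and with DESeq2. *LILRA4*, a receptor of plasmacytoid dendritic cells, had at most 12 counts in any sample and *LILRB5* had 0 in all. *LILRA3* was not analysed here. Of 14 other genes within or around the cluster that do not encode immune receptors, 12 were tested, with a median log2 fold change of -0.10. Among them 3 were higher and 4 lower, beside 35.5% and 35.3% of all tested genes. Those with the largest changes above 10 CPM were *PRPF31* (-0.76) and *RDH13* (-0.88) among the lower and *TSEN34* (0.31) and *LENG8* (0.20) among the higher. The *LENG8* groups overlapped in CPM, and its call was lost with DESeq2 (adjusted p = 0.0587) and with limma on log2(TPM + 1) (adjusted p = 0.0726). Of 13 other receptor genes of the complex only *OSCAR*, an activating collagen receptor, was tested, and it rose from 15.6 ± 0.570 to 26.3 ± 1.41 CPM (SD, n = 3 each; log2 fold change 0.75, adjusted p = 4.19e-07 from edgeR).

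**Figure D4:**
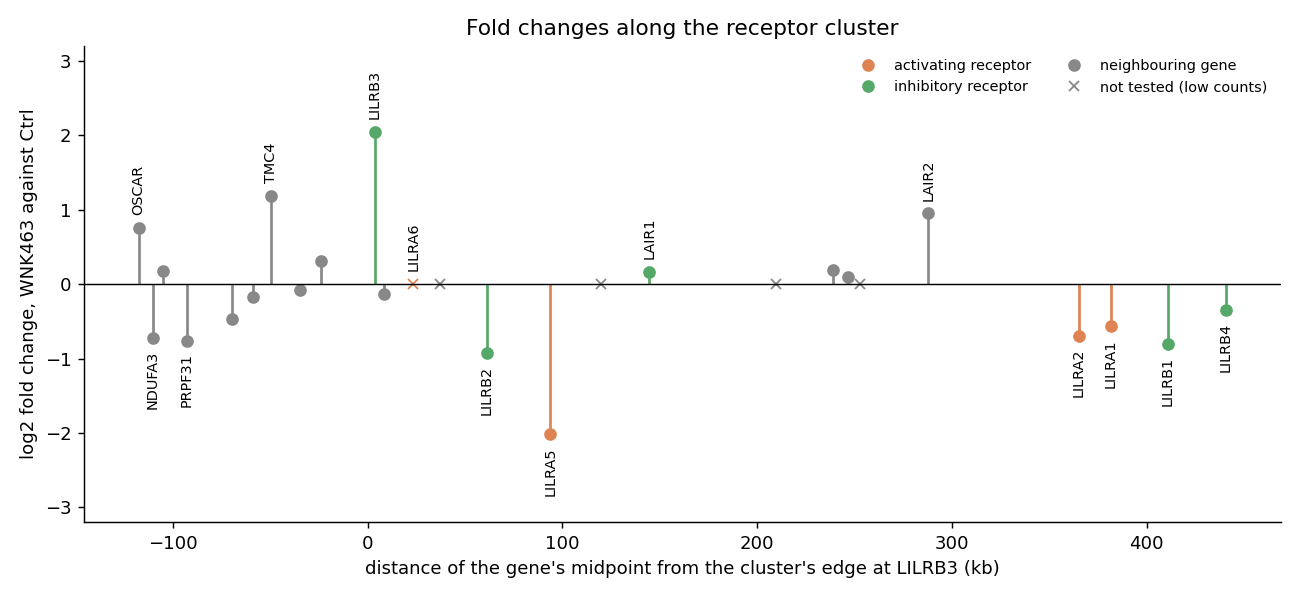
Log2 fold change of the receptor genes and their neighbours (vertical axis) against the distance of the gene's midpoint from the edge of the cluster at *LILRB3* (horizontal axis, kb). Crosses mark genes with too few counts to test. The 4 receptor genes at the right end all lie below 0, between -0.35 and -0.80.

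Activating receptors of the family need the adaptor encoded by *FCER1G*, and its transcripts changed in the opposite direction. *FCER1G* was at 67.4, 73.0 and 66.9 TPM in Ctrl and at 157.5, 171.9 and 159.6 TPM with WNK463, a log2 fold change of 1.05 (standard error 0.07, adjusted p = 6.68e-10 from edgeR). *LILRA2* TPM per *FCER1G* TPM was thus 0.917, 0.766 and 0.929 in Ctrl and 0.281, 0.220 and 0.288 with WNK463. *SYK*, the kinase bound by the adaptor, fell from 540.9 ± 16.0 to 338.9 ± 20.9 CPM (SD, n = 3 each; log2 fold change -0.67, adjusted p = 1.48e-09 from edgeR). Of 15 genes for activating signalling, 13 were tested, with a median log2 fold change of 0.28. Among them 9 rose and 3 fell, beside 35.5% and 35.3% of all tested genes. The largest rises were in the adaptor *HCST* (1.21) and the Src family kinase *FGR* (1.15), and the largest fall beside *SYK* was in *VAV1* (-0.39), an exchange factor.

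Genes for inhibitory signalling were examined in the same way. *PTPN6*, which encodes SHP-1, rose from 618.4 ± 18.6 to 689.3 ± 19.6 CPM (SD, n = 3 each; log2 fold change 0.16, adjusted p = 0.00434 from edgeR). *PTPN11*, which encodes SHP-2, was at 246.7 ± 20.0 CPM in Ctrl and 264.3 ± 9.04 CPM with WNK463 (SD, n = 3 each; log2 fold change 0.10, adjusted p = 0.117 from edgeR), and it was called higher with total-count scaling (adjusted p = 0.00104) and with limma on log2(TPM + 1) (adjusted p = 0.0267). *INPP5D*, which encodes the lipid phosphatase SHIP1, fell by 0.42 on the log2 scale, and *ARRB2*, an arrestin linked to LILRB4 signalling, rose by 0.20. Of 12 genes on this list 11 were tested, with a median of 0.20. Among them 7 rose and 2 fell, beside 35.5% and 35.3% of all tested genes. The largest rises were in the adaptors *GAB2* (1.11) and *DOK2* (0.76). The other gene that fell was *CSK* (-0.15), whose value turned to 0.06 with limma on log2(TPM + 1) and whose call was lost there (adjusted p = 0.29) and with total-count scaling (adjusted p = 0.96).

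Ligands that the same cells could present were also measured. Of 25 ligand and binding partner genes 13 were tested, with a median log2 fold change of 0.55. Among them 10 rose and 1 fell, beside 35.5% and 35.3% of all tested genes. *HLA-E* rose from 347.7 ± 17.4 to 710.3 ± 22.2 CPM (SD, n = 3 each; log2 fold change 1.03, adjusted p = 3.21e-12 from edgeR). The HLA class I genes *HLA-B* and *HLA-C* and the light chain gene *B2M*, whose products LILRB1 and LILRB2 recognize, had log2 fold changes of 0.53, 0.14 and 0.55, all called, although *HLA-C* was not called with DESeq2 (adjusted p = 0.0601). *HLA-F* had a log2 fold change of -0.29, with Ctrl and treated CPM that did not overlap, and did not pass (adjusted p = 0.0507 from edgeR, 0.0494 with RLE factors). *HLA-G* had 0 counts in all samples. *C1QA*, a complement chain that LAIR1 can bind, rose from 0.985 ± 0.627 to 13.1 ± 1.12 CPM, and *S100A9* from 4.73 ± 0.980 to 12.9 ± 0.212 CPM (SD, n = 3 each). *APOE*, counted among the genes that rose, had 0, 2 and 0 counts in Ctrl and 16, 18 and 12 with WNK463. It passed the filter on low counts only through the treated group. *BST2*, the ligand of LILRA4, fell by 0.43 on the log2 scale. The collagen gene *COL1A1* had at most 5 counts in any sample.

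**Figure D5:**
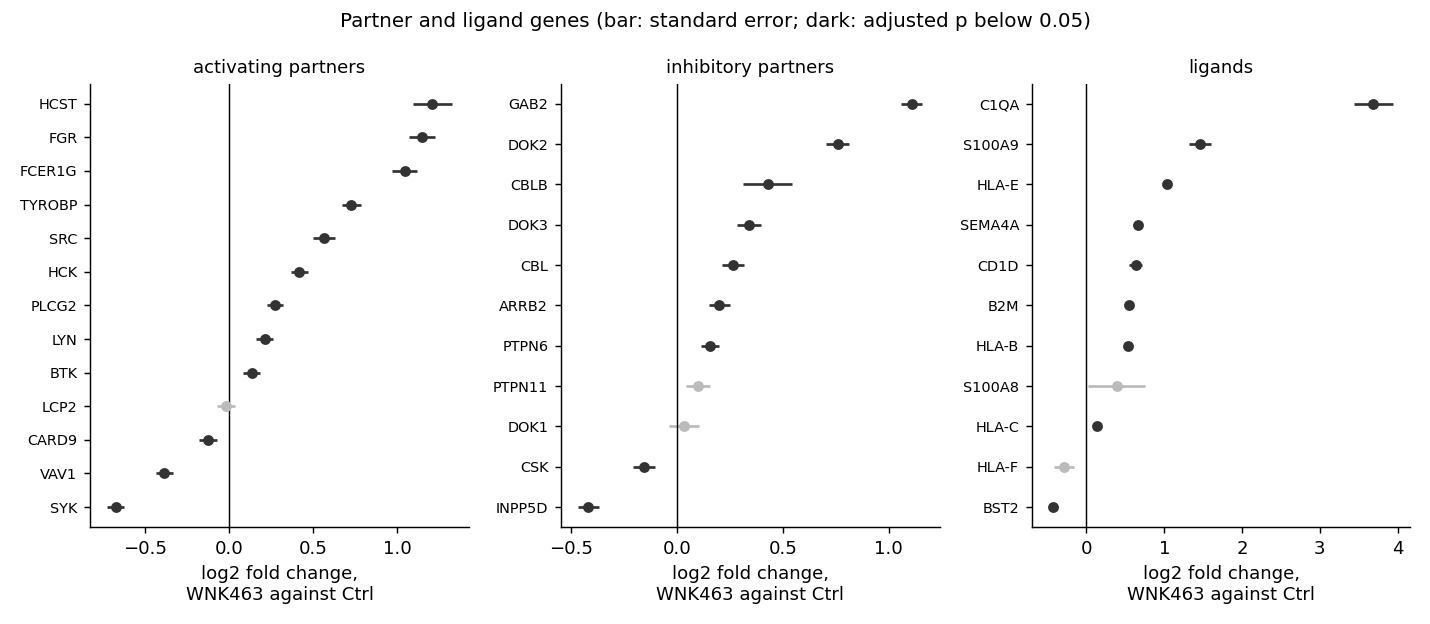
Log2 fold change (horizontal axis, WNK463 against Ctrl) of the tested genes for activating signalling, inhibitory signalling and ligands, with bars for the standard error and dark dots for an adjusted p below 0.05. Genes not reported here are not drawn, and *APOE* is left out since each Ctrl sample had 2 counts or fewer. *FCER1G* (1.05) and *SYK* (-0.67) lie on opposite sides in the first panel, and most ligand genes lie above 0.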

How the data were processed

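MV4-11 cells were analysed as 3 Ctrl and 3 WNK463 samples, grouped by their titles. The authors deposited estimated counts per gene, rounded to whole numbers and not normalized, and TPM values per sample, which sum to 1000000. The authors' mean TPM, log2 fold change and p-value columns were not used. Per the labels, fastp, Bowtie2, HISAT2, StringTie and RSEM and the build GRCh38 were named without versions. Whether counting used strand is not given in the sources used here.

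Counts were tested with edgeR 4.0.16 in R 4.3.3 (filterByExpr by group, TMM factors, quasi-likelihood test, Benjamini-Hochberg adjustment). Standard errors were obtained as the size of the log2 change over the root of the F statistic. CPM use the TMM library sizes. Alternatives were DESeq2 1.42.0, limma 3.58.1 on log2(TPM + 1) and log2(TPM + 0.1), other scalings, filters and thresholds, a replicate block, and each sample left out. Protein sequences were not used here, and some list genes are counted but not reported here by name. The edgeR procedure was tested on simulated data, where false calls made up a somewhat larger share of its calls than the threshold of 0.05 allows. Replicates differed by more than sampling noise (chi-square statistics of 2.64 to 7.13 per degree of freedom).

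The 9 receptors and all lists were chosen with earlier results of these data known. From the other lists, genes named are the 2 called with the largest change in each direction at 10 CPM or more in 1 group, and *FCER1G*, *SYK*, *ARRB2*, *PTPN6*, *PTPN11* and *INPP5D*. HLA genes, *B2M*, *APOE*, *COL1A1*, *BST2*, *SIRPA*, *FCGR2B*, *SIGLEC5*, *PILRA*, *PILRB*, marker genes and genes at 0 were named after their values were seen. The alignments of promoter windows were added then, and *RPS9* is named for its place only.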

Additional observations from a re-analysis of the deposited data

How the results depend on the processing

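For the 8 tested receptors, every alternative in tool, scaling, filter, block and samples that gave a value kept the direction and an adjusted p below 0.05. *LILRA5* and *LILRB3* gave no value with at least 10 counts in every sample. In the main test they passed the filter only through the group where they were higher. The log2 fold changes ranged from -0.66 to -0.35 for *LILRA1*, -0.76 to -0.48 for *LILRA2*, -2.07 to -1.0 for *LILRA5*, -0.92 to -0.57 for *LILRB1*, -1.04 to -0.62 for *LILRB2*, 0.76 to 2.42 for *LILRB3*, -0.40 to -0.20 for *LILRB4* and 0.14 to 0.31 for *LAIR1*. The values of *LILRA5* and *LILRB3* nearest to 0 came from log2(TPM + 1), which understates changes of low genes. Scaling by total counts raised the median of all tested genes by 0.15, and 63.9% of calls were then higher in place of 50.2%, with 46.1% of tested genes higher and 26.1% lower. Relative to the median of each scaling, *LILRB4* was at -0.37 and *LAIR1* at 0.15 under both. A scaling moves all genes by nearly the same amount, so these equal values follow from the arithmetic and are no further check.

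Counts of called receptors changed with the threshold and the filter. When a log2 change of 1 or more in size was required, or with glmTreat against it, 1 activating gene was lower, 1 inhibitory gene was higher and 0 inhibitory genes were lower. With DESeq2 and with no filter, 1 activating gene was higher (*LILRA6*, adjusted p = 0.00929 and 0.00327). With at least 10 counts in every sample, *LILRB3* and *LILRA5* were not tested, 1 inhibitory gene was higher and 1 macrophage marker was called. *LAIR2* was not called (0 further family genes) with DESeq2, with no filter, with at least 10 counts in every sample, or when any sample but WNK463 replicate 3 was left out (0 to 1 called). DESeq2 and the fit with no filter called 2 and 3 other receptor genes of the complex. Summed to 1 row, the LILRB counts had a log2 fold change of -0.40, beside a median of -0.58 for the 4 genes. Other list counts stayed within 1.5 times.

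Samples with the same number did not deviate together (correlations of 0.01, 0.02 and -0.06). With the replicate block, the log2 fold change of *LAIR1* was 0.16 (adjusted p = 0.00917) and no receptor's call changed. Depth limits *LILRA6*, *LILRB3* and *LILRA5*, with at most 9, 29 and 27 counts in a sample.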

Other observations

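Other myeloid receptors that come as activating and inhibitory relatives were examined beside the leukocyte immunoglobulin-like receptors. Over all tested genes, 35.5% rose and 35.3% fell. Of 21 other activating receptor genes 12 were tested, and 7 rose and 3 fell, with a median log2 fold change of 0.66. *CD300C* fell from 27.8 ± 0.670 to 7.10 ± 0.747 CPM and *SIRPB1* from 40.6 ± 0.608 to 12.5 ± 1.48 CPM (SD, n = 3 each), with log2 fold changes of -1.96 and -1.70. *SIGLEC14* and the Fc receptor gene *FCGR2A* rose, with log2 fold changes of 0.97 and 0.88. Of 20 other inhibitory receptor genes 15 were tested, and 8 rose and 3 fell, with a median of 0.22. *CD300A*, the inhibitory relative of *CD300C*, rose from 20.3 ± 1.11 to 47.1 ± 1.52 CPM (SD, n = 3 each; log2 fold change 1.22), and *SIRPA*, the inhibitory relative of *SIRPB1*, rose by 0.22 on the log2 scale. Other pairs of relatives differed from these. *FCGR2B*, the inhibitory relative of *FCGR2A*, fell (-0.71), with CPM of the groups that overlapped. *SIGLEC5*, the inhibitory relative of *SIGLEC14*, rose (0.74), and both the inhibitory *PILRA* (1.83) and the activating *PILRB* (0.61) rose. *CD72* rose as well (1.52), while *SIGLEC7* and *CD33* fell, with log2 fold changes of -0.89 and -0.38. All values named here passed an adjusted p of 0.05 from edgeR with TMM scaling. The *CD300*, *SIRP*, *FCGR2*, *SIGLEC* and *PILR* genes include close relatives, and reads could be divided wrongly between them.

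Among the 13 markers of AML and myelomonocytic cells, 12 were tested, and 7 rose and 4 fell, beside 35.5% and 35.3% of all tested genes. The integrin gene *ITGAM* (1.25) and *PTPRC* (1.20) had the largest rises above 10 CPM, and *LYZ* (-2.22) and *CD33* (-0.38) the largest falls. *SPI1*, which encodes PU.1, was at 218.1 ± 3.99 CPM in Ctrl and 218.4 ± 4.46 CPM with WNK463 (SD, n = 3 each), and its log2 fold change of 0.00 did not pass (adjusted p = 0.971 from edgeR). It was called higher with total-count scaling (0.15, adjusted p = 0.00486) and with limma on log2(TPM + 1) (0.19, adjusted p = 0.00197). Of 15 markers of other blood cells only *ITGA2B* (1.38) and *NKG7* (0.46) had enough counts to be tested, and both rose. Of the 10 macrophage markers 4 were tested and 3 rose, among them *C1QC* and *C1QB*, which passed the filter only through the treated group.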
